A study of Rattus norvegicus with 16 samples.

Results

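The genes described here are 10 that answer to the transcription factor NRF2 or control it: Nqo1, Hmox1, Gclc, Gclm, Txnrd1, Srxn1, Osgin1, Nfe2l2, Keap1 and Slc7a11. They were taken by symbol from a table of 22587 gene symbols measured by RNA sequencing of rat liver, and all 10 were found. The livers came from male rats aged 13 weeks, with the strain given as Wistar-Wyoto. The 4 groups of 4 libraries each were adrenalectomized rats (ADREX, both adrenal glands removed) after 4 hours in ozone at 0.8 ppm, ADREX rats after air, sham-operated rats (SHAM) after ozone at 0.8 ppm for 4 hours, and SHAM rats after air for 4 hours. Every rat had undergone surgery, and the series asks how adrenal stress hormones shape the liver's response to acute ozone. The groups follow the sample titles, because the treatment field of the labels gives ozone also for the 4 libraries titled ADREX air. The labels number the livers but do not say that each came from a different animal, so p-values measure the spread between these samples.

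NRF2, encoded by Nfe2l2, is a transcription factor that the adaptor KEAP1 normally hands to a ubiquitin ligase for destruction. Oxidants and electrophiles modify KEAP1, NRF2 then accumulates, pairs with a small MAF protein and binds antioxidant response elements near genes of glutathione synthesis, thioredoxin recycling, quinone reduction and heme breakdown. In the liver this battery is known for its part in defence against reactive metabolites, and ozone itself is an oxidant that reacts in the airways.

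The promoters of Osgin1, the member that changed, and of Gclm and Txnrd1 are printed below, because in Gclm and Txnrd1 the core of the antioxidant response element was found upstream of the start. The core searched was TGACNNNGC on both strands, and its matches are in capitals. Sequences are from RefSeq, run 5′ to 3′ on the gene's strand and cover 300 bases around the annotated start, 250 of them before it.
Osgin1 promoter, GRCr8 chr19:64393651-64393950, plus strand: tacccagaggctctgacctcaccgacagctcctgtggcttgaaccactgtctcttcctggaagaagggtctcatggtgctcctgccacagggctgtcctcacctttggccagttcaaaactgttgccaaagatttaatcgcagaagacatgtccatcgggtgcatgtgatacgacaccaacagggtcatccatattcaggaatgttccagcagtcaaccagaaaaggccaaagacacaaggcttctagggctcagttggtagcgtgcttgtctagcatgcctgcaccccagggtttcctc
Gclm promoter, GRCr8 chr2:213031885-213032184, plus strand: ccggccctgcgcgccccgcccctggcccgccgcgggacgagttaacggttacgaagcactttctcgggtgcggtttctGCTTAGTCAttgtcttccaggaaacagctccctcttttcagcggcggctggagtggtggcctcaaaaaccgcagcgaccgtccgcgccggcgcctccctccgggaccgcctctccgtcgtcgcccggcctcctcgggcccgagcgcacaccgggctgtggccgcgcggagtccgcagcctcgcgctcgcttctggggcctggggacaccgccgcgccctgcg
Txnrd1 promoter, GRCr8 chr7:22755855-22756154, minus strand: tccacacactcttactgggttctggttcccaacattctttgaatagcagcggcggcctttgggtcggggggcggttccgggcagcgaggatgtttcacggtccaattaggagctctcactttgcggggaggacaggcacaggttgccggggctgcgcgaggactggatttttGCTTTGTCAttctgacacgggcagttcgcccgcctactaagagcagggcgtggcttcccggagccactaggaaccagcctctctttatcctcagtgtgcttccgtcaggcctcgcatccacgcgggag
In Gclm the match was TGACTAAGC on the opposite strand, between 172 and 164 bases before the start. In Txnrd1 it was TGACAAAGC on the opposite strand, between 78 and 70 bases before the start of 1 of the 2 windows listed for the gene. Nfe2l2 also held a match, TGACGCCGC, located 39 to 47 bases after its start. RefSeq windows were matched for 9 members, Hmox1 being the exception, and 3 of their 10 windows held the core, beside 12.1% of all 33469 promoter windows. The Osgin1 window held no match. Elements more than 250 bases before a start lay outside these windows and were not searched. A match is a description of the letters and does not show binding.

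The values are normalized read counts, reads scaled by the authors for the size of each library. Recovered totals ran from 8372891 to 14096246 reads per library. A gene was tested when its mean over all libraries was at least 14.7, and 12791 genes were. Of the 10 members 9 were tested, and Srxn1, with a mean of 7.41, was not. The 7 hepatocyte markers examined, among them Alb and Cps1, were all present and summed to between 100867 and 217478 RPM, that is, reads scaled to a library of 1000000. Their means were 143344 ± 48031 in ADREX ozone, 131803 ± 15288 in ADREX air, 154975 ± 9089 in SHAM ozone and 181500 ± 33969 in SHAM air (SD, n = 4 each). Alb was the largest of these markers, and not all followed the sum. Apoa1 averaged 49441 ± 20725 normalized counts in ADREX ozone, 36073 ± 9479 in ADREX air, 17440 ± 1447 in SHAM ozone and 13155 ± 6304 in SHAM air. ADREX minus SHAM log2 differences were above 0 for 2 of the 7 in air and 1 under ozone. The sums of 4 cholangiocyte markers, of which 3 reached the mean needed for testing, ran from 11.4 to 13.9 RPM in ADREX ozone, 13.4 to 18.6 in ADREX air, 10.1 to 13.7 in SHAM ozone and 4.66 to 8.92 in SHAM air, so that SHAM air lay below the other groups. Sums of 4 sinusoidal endothelial markers ran from 139 to 226 RPM in ADREX ozone, 172 to 385 in ADREX air, 123 to 240 in SHAM ozone and 249 to 270 in SHAM air. There SHAM ozone lay below SHAM air. The part of these shifts in the results was not tested. Libraries also held transcripts of neurons and oligodendrocytes in widely varying amounts, with sums over 25 markers from 44.9 to 4829 RPM. Of these 25 markers, 23 reached the mean needed for testing. These sums ran from 843 to 4829 RPM in ADREX ozone, from 279.8 to 1220.3 in ADREX air, from 80.5 to 2966 in SHAM ozone and from 44.9 to 865 in SHAM air. In bulk tissue, fewer cells of a type and less RNA per cell cannot be told apart.

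**Figure D1:**
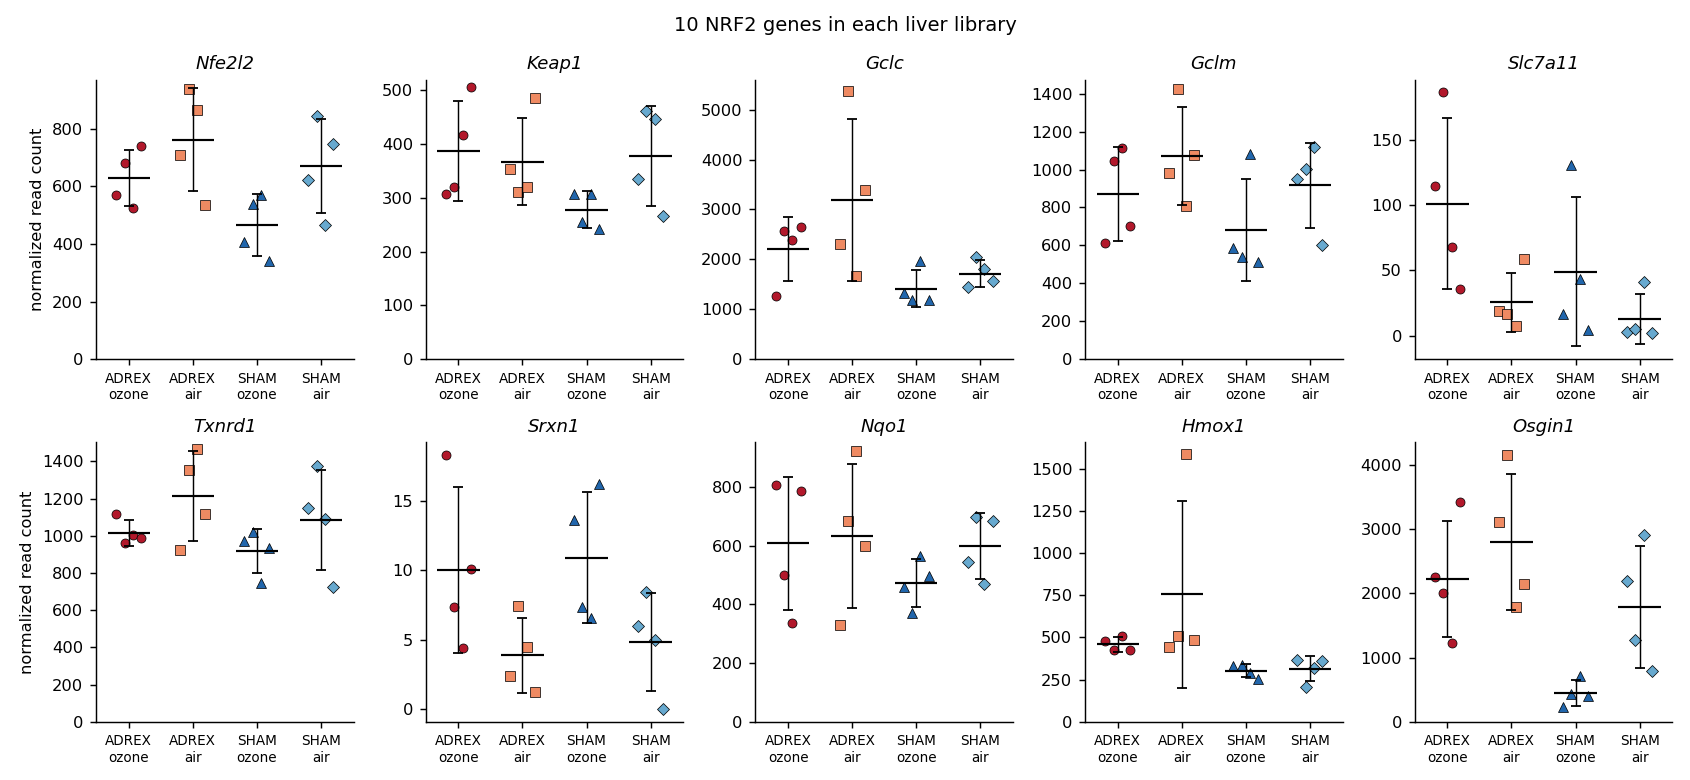
Normalized read counts (vertical axis, linear, a scale per gene) of the 10 NRF2 genes in 16 liver libraries. Each point is 1 library, the wide bar is the group mean and the error bar is ± 1 SD (n = 4). Osgin1 lies between 225 and 713 in SHAM ozone, below all libraries of the other groups, and 1 ADREX air library stands at 1587 for Hmox1.

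Osgin1, named oxidative stress induced growth inhibitor 1, was the only member that passed limma's test in any of the 5 comparisons made with all libraries. With ozone it fell in SHAM livers, to 225, 439, 713 and 401 normalized counts in SHAM ozone libraries 17 to 20, against 2189, 1276, 2901 and 783 in SHAM air libraries 1 to 4. Every SHAM ozone library was below every SHAM air library, a pattern that 5.93% of all genes tested showed in this direction. The means were 445 ± 202 in SHAM ozone and 1787 ± 944 in SHAM air (SD, n = 4 each), a log2 difference of −1.95 ± 0.42 (SE) and 3.86-fold lower under ozone, with a 95% interval of the log2 difference from −2.84 to −1.06 (limma adjusted p = 0.0296 over all genes tested). Called in this comparison were 1 of the 9 tested members and 1.58% of all genes, 0.946% higher and 0.633% lower.

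The SHAM call for Osgin1 was lost without any 1 of 5 libraries, while the log2 difference stayed between −1.66 and −2.06. Leaving out SHAM air 1 or 2 gave an adjusted p of 0.0664 or 0.0738, and leaving out SHAM ozone 17, 18 or 20 gave 0.12, 0.0563 or 0.104. In the 7 alternatives that kept all libraries, the call remained.

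In adrenalectomized rats Osgin1 had 2259, 1999, 1224 and 3415 normalized counts in ADREX ozone libraries 81 to 84, against 3109, 4153, 1790.0 and 2149 in ADREX air libraries 65 to 68. These groups overlapped, and the log2 difference of −0.35 ± 0.42 did not pass (95% interval −1.24 to 0.54, limma adjusted p = 0.714). Whether ozone acted differently in the 2 kinds of rats was tested directly. The ADREX ozone effect minus the SHAM ozone effect was 1.60 ± 0.59 on the log2 scale, with an interval from 0.34 to 2.86, and it did not pass over all genes tested (limma adjusted p = 0.282, unadjusted p = 0.0158).

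Under ozone, Osgin1 was higher in ADREX than in SHAM livers, with means of 2224 ± 907 in ADREX ozone and 445 ± 202 in SHAM ozone (SD, n = 4 each). The lowest ADREX ozone library, at 1224, was above the highest SHAM ozone library, at 713, as in 10.6% of all genes tested. The log2 difference was 2.34 ± 0.42, or 5.07-fold higher (95% interval of the log2 difference 1.45 to 3.23, limma adjusted p = 0.00264). This call was kept in all 23 alternatives, with adjusted p of at most 0.0121, and edgeR gave 0.0042 and DESeq2 2.02e-06. Here 1 of 9 members was called, beside 12.5% of all genes (6.04% higher and 6.48% lower), a share of the members close to the background. In air the means were 2800.2 ± 1060 in ADREX and 1787 ± 944 in SHAM, and the log2 difference of 0.74 ± 0.42 did not pass (limma adjusted p = 0.327).

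**Figure D2:**
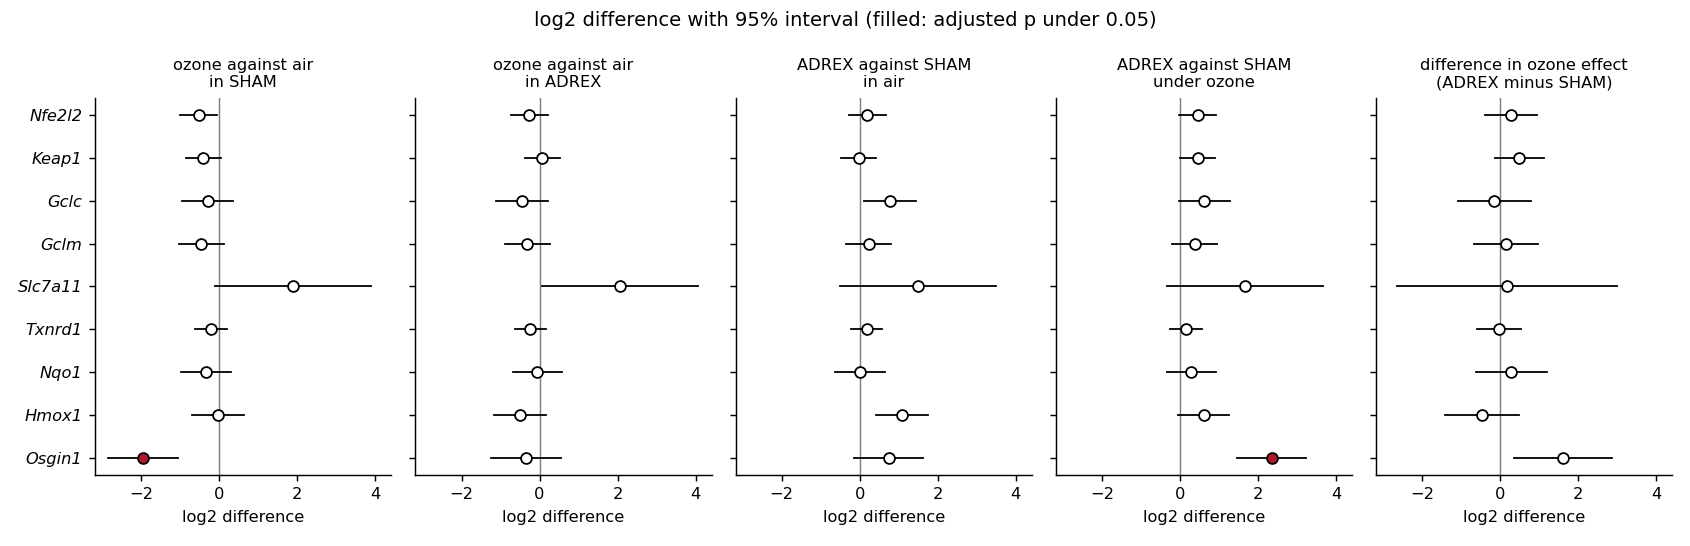
Log2 differences (horizontal axis) with 95% intervals for the 9 NRF2 genes tested, 1 panel per comparison. Filled points passed at an adjusted p under 0.05, as Osgin1 did at −1.95 for ozone in SHAM and at 2.34 for ADREX against SHAM under ozone, and open points did not.

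The regulators of the pathway, Nfe2l2 and Keap1, did not pass in any comparison. Nfe2l2 had 408, 538, 570.3 and 342 normalized counts in SHAM ozone libraries 17 to 20, against 622, 844, 466 and 748 in SHAM air libraries 1 to 4. These groups overlapped through SHAM air 3, the lowest of its group. The log2 difference was −0.52 ± 0.22 (95% interval −1.0 to −0.05), and its adjusted p by limma was 0.232. In ADREX livers Nfe2l2 averaged 629 ± 98.6 after ozone and 763 ± 178 after air (log2 difference −0.26 ± 0.22, limma adjusted p = 0.584).

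Keap1 averaged 388 ± 93.2 in ADREX ozone, 367 ± 80.9 in ADREX air, 278 ± 34.6 in SHAM ozone and 377 ± 92.7 in SHAM air (SD, n = 4 each). Its libraries overlapped between ADREX ozone, from 308 to 507, and SHAM ozone, from 242 to 308. Under ozone the ADREX minus SHAM log2 difference was 0.46 ± 0.21 for Keap1 and 0.45 ± 0.22 for Nfe2l2, with limma adjusted p of 0.154 and 0.177.

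Gclc and Gclm encode the catalytic and the modifier subunit of glutamate-cysteine ligase, the enzyme that sets the rate of glutathione synthesis. Gclc had 2316, 5384, 1671 and 3389 normalized counts in ADREX air libraries 65 to 68, against 1439, 2049, 1805 and 1559 in SHAM air libraries 1 to 4. Of the ADREX air libraries 3 lay above every SHAM air library, and ADREX air 67 did not. The log2 difference of 0.77 ± 0.31 (95% interval 0.12 to 1.43) did not pass (limma adjusted p = 0.183). Without ADREX air 67 it was 1.04 and passed, with an adjusted p of 0.048, in a range of 0.048 to 0.403 over the alternatives.

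Under ozone Gclc had 1264, 2566, 2377 and 2638 normalized counts in ADREX libraries 81 to 84, against 1326, 1187, 1960.0 and 1186 in SHAM libraries 17 to 20. Again 3 of the 4 ADREX libraries lay above all SHAM libraries, with ADREX ozone 81 among the SHAM values, and the log2 difference of 0.62 ± 0.31 did not pass (limma adjusted p = 0.185). The ozone minus air differences of Gclc were −0.45 ± 0.31 in ADREX and −0.30 ± 0.31 in SHAM, and neither passed (limma adjusted p = 0.479 and 0.626).

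Gclm averaged 869 ± 248 in ADREX ozone, 1072 ± 260 in ADREX air, 680 ± 269 in SHAM ozone and 917 ± 223 in SHAM air (SD, n = 4 each). No comparison passed, and the largest of its ozone or ADREX differences was −0.47 ± 0.27 for ozone in SHAM, where SHAM ozone 19, at 1081, stood apart from the other 3 SHAM ozone libraries, at 513 to 586. The log2 ratio of Gclc to Gclm within a library, which does not depend on depth, averaged 1.47 ± 0.39 in ADREX air and 0.92 ± 0.36 in SHAM air (SD, n = 4 each). That difference of 0.54 was not established (two-sided exact permutation test over 70 splits, p = 0.114, adjusted over 4 comparisons 0.457). The other comparisons of the ratio gave exact p of 0.371 to 0.743. With so few splits, 1 fully separated comparison alone could not have passed after adjustment.

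Slc7a11 encodes the cystine importer xCT, which supplies the cysteine for glutathione. It had 114, 186, 68 and 36 normalized counts in ADREX ozone libraries 81 to 84, against 18.8, 16.9, 7.45 and 58.7 in ADREX air libraries 65 to 68. In SHAM ozone libraries 17 to 20 it had 16.6, 131, 43.5 and 4.42, against 2.98, 4.80, 41.3 and 2.01 in SHAM air libraries 1 to 4. In each kind of rat the ozone and air libraries overlapped, and the log2 differences, ozone minus air, were 2.07 ± 0.94 in ADREX and 1.90 ± 0.94 in SHAM. Neither passed (limma adjusted p = 0.269 and 0.294).

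Slc7a11 was high in the libraries that were rich in neural markers. The library with the highest value, ADREX ozone 82 with 178 reads, also had the largest sum of neuron and oligodendrocyte markers, 4829 RPM. SHAM ozone 18, at 107 reads, had the second largest, 2966 RPM, while the 5 libraries under 8 normalized counts had sums of 44.9 to 279.8 RPM. The tested genes most like it over the 16 libraries were Ptprz1, Arhgef4 and Tcte1 (Pearson r of 0.981, 0.979 and 0.977), of which Ptprz1 is a receptor phosphatase known from glial cells. With the neural marker score as a covariate the ozone minus air differences of Slc7a11 were 0.54 in ADREX and 0.39 in SHAM (limma adjusted p = 0.552 and 0.698). Mean neural sums were themselves higher after ozone than after air, at 2133 and 575 RPM in ADREX and 977 and 271 RPM in SHAM. This fit therefore cannot tell ozone and neural content apart, and the part of neural RNA in the Slc7a11 values was not tested.

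Of the thioredoxin genes, Txnrd1, the cytosolic thioredoxin reductase, had 1017 ± 70.5 normalized counts in ADREX ozone, 1215 ± 243 in ADREX air, 919 ± 120 in SHAM ozone and 1085 ± 268 in SHAM air (SD, n = 4 each). Its ozone minus air log2 differences were −0.24 ± 0.19 in ADREX and −0.21 ± 0.19 in SHAM, and did not pass (limma adjusted p = 0.548 and 0.562). Their 95% intervals ended at 0.16 in ADREX and 0.19 in SHAM, so a rise larger than that lay outside them.

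Srxn1, the sulfiredoxin that repairs overoxidized peroxiredoxins, had few reads. It had 16, 7, 4 and 7 reads in ADREX ozone libraries 81 to 84, against 2, 7, 3 and 1 in ADREX air libraries 65 to 68. In SHAM it had 9, 6, 6 and 11 reads in ozone libraries 17 to 20, against 4, 7, 4 and 0 in air libraries 1 to 4. Summed over the libraries these were 34 reads in ADREX ozone and 13 in ADREX air, and 32 in SHAM ozone and 15 in SHAM air, and in both kinds of rats the libraries overlapped. Fitted without the filter on low values, the ozone minus air log2 differences of Srxn1 were 1.2 ± 0.67 in ADREX and 1.33 ± 0.67 in SHAM (limma adjusted p = 0.392 and 0.389). Unadjusted p was 0.0905 in ADREX and 0.063 in SHAM. The count of 0 in SHAM air 4 allows up to 3 reads, and 3 reads equal 3.14 to 6.02 normalized counts over the libraries, a limit that covers counting error only.

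Nqo1, the quinone reductase widely used as a readout of NRF2, did not pass in any comparison. It averaged 607 ± 228 in ADREX ozone and 633 ± 244 in ADREX air (log2 difference −0.05 ± 0.30, limma adjusted p = 0.949). In SHAM it averaged 473 ± 81.5 after ozone and 598 ± 112 after air (log2 difference −0.34 ± 0.30, limma adjusted p = 0.563). The 95% intervals of these ozone effects ran from −0.69 to 0.58 in ADREX and from −0.975 to 0.30 in SHAM, both short of a doubling, which is 1 on this scale. The ADREX libraries spread more, from 330 to 922, than the SHAM libraries, from 369 to 699.

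Hmox1 encodes heme oxygenase 1, which breaks down heme and in the liver is strong in Kupffer cells, the resident macrophages. It had 446, 506, 1587 and 485 normalized counts in ADREX air libraries 65 to 68, against 369, 207, 319 and 363 in SHAM air libraries 1 to 4. Every ADREX air library was above every SHAM air library, as in 4.24% of all genes tested. The log2 difference of 1.07 ± 0.31 (95% interval 0.41 to 1.74) missed the threshold by limma (adjusted p = 0.0699) and by edgeR (0.0591) and passed by DESeq2 (0.00957). Without ADREX air 67, the library at 1587, it was 0.64 with an adjusted p of 0.0565, and over the 23 alternatives the adjusted p ran from 0.00957 to 0.22.

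Under ozone the groups of Hmox1 did not overlap either, with 479, 424, 508 and 423 normalized counts in ADREX libraries 81 to 84, against 331, 335, 291 and 254 in SHAM libraries 17 to 20. Of all genes tested, 10.6% showed that separation in this direction. The log2 difference was 0.60 ± 0.31 (limma adjusted p = 0.199). Without ADREX air 67, a library of neither group whose spread enters the shared estimate, the adjusted p was 0.0339, in a range of 0.0339 to 0.374 over the alternatives. Ozone minus air differences of Hmox1 were −0.50 ± 0.31 in ADREX and −0.03 ± 0.31 in SHAM, and did not pass (limma adjusted p = 0.433 and 0.971).

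The summed level of 7 Kupffer cell markers, all 7 of them present, ran from 494 to 1002 RPM in ADREX ozone, 477 to 931 in ADREX air, 393 to 548 in SHAM ozone and 379 to 527 in SHAM air. The part of these cells in the Hmox1 values was not tested. ADREX air 67, the library highest in Hmox1, had the lowest Kupffer sum of its group, 477 RPM, and the highest neutrophil sum of all libraries, 24.5 RPM over 4 markers, where the other libraries had 2.37 to 12.7. Of these 4 neutrophil markers, 2 reached the mean needed for testing. The genes most like Hmox1 over the 16 libraries were Myd88, Sgk1 and Slc7a7 (Pearson r of 0.867, 0.857 and 0.844).

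**Figure D3:**
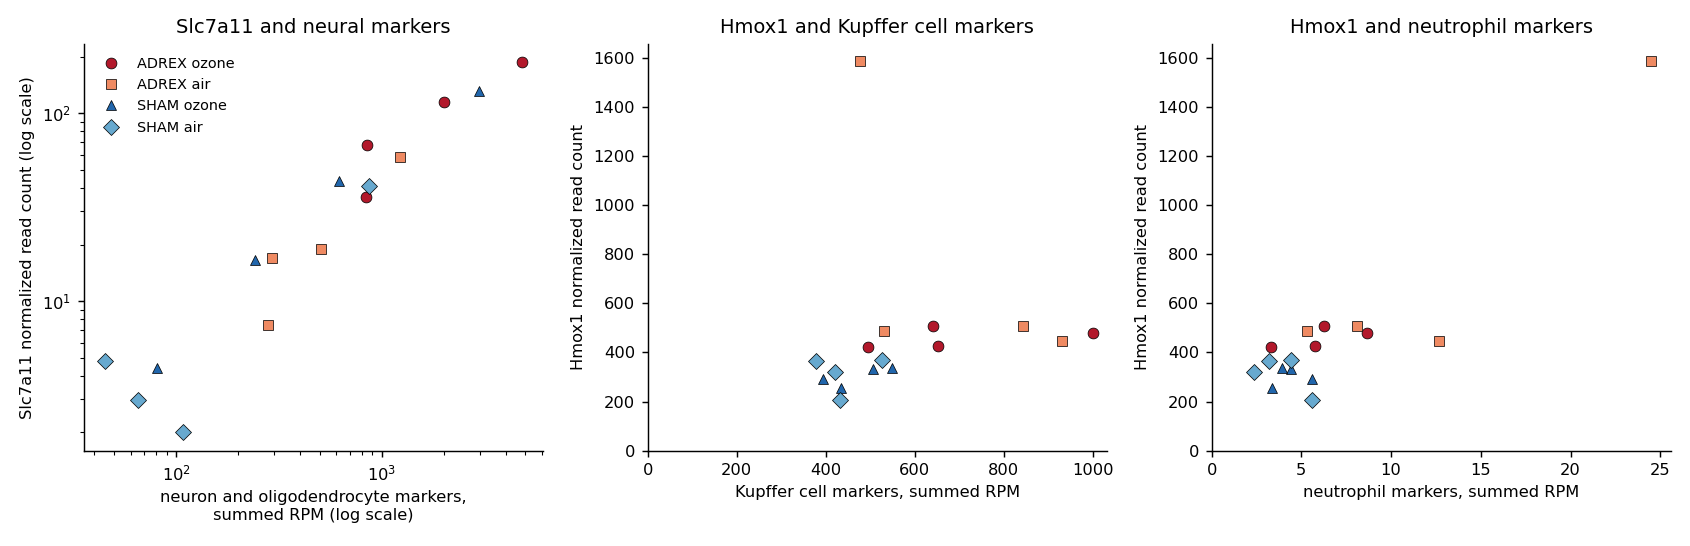
Left, Slc7a11 normalized read counts against the summed RPM of 25 neuron and oligodendrocyte markers, both on log axes. Middle and right, Hmox1 normalized read counts against the summed RPM of 7 Kupffer cell and 4 neutrophil markers, on linear axes. Each point is 1 of 16 libraries. Slc7a11 is highest, at 186, where the neural sum is 4829, and the Hmox1 value of 1587 belongs to the library with a neutrophil sum of 24.5.

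Across the 9 tested members, ozone minus air differences in SHAM were below 0 for 8, Slc7a11 being the exception, with a median of −0.34 beside 0.01 over all genes tested. Unadjusted p was under 0.05 for 2 of them, Osgin1 and Nfe2l2, beside 18.4% of all genes. With ozone in ADREX limma called 0 of 9 (0.125% of all genes), edgeR and DESeq2 0, and 1 had an unadjusted p under 0.05, Slc7a11, beside 17.8% of all genes. There 7 differences were below 0, with a median of −0.26 beside 0.06 over all genes. The difference between the ozone effects was called by limma for 0 members (0.109% of all genes), by edgeR and DESeq2 for 0, and 1, Osgin1, had an unadjusted p under 0.05, beside 12.9%. The 5 comparisons share libraries, so their values are not independent. All members were measured in the same libraries, so the signs of their differences are not separate observations. The signs were not tested as a set, and the share of all genes on each side of 0 was not computed.

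For ADREX against SHAM in air limma called 0 members (3.53% of all genes, 1.49% higher and 2.03% lower), edgeR 0 and DESeq2 1, Hmox1, and 2, Hmox1 and Gclc, had an unadjusted p under 0.05, beside 20.2% of all genes. The median difference was 0.23 beside 0.04 over all genes. Under ozone the ADREX minus SHAM differences of the 9 members were all above 0, with a median of 0.46 beside 0.11 over all genes. After rescaling by TMM the median of all genes was 0.01 and that of the members 0.35, and the 9 differences were still above 0. With the neural covariate the difference of Slc7a11 was 0.02 (limma adjusted p = 0.98). Unadjusted p was under 0.05 for 2 members, Osgin1 and Keap1, beside 31.2% of all genes.

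NRF2 works with partners and rivals, of which 14 of 15 listed were tested. BACH1 and BACH2 are repressors that bind the same elements, and the small MAF proteins are the shared partners of both. With ozone in SHAM livers limma and edgeR called 1 of the 14, Bach2, beside 1.58% of all genes by limma, and DESeq2 called also Bach1 (adjusted p = 0.0492, against 0.166 by limma). Bach2 stood at 123 ± 12.3 in SHAM ozone and 20.1 ± 6.77 in SHAM air (log2 difference 2.61 ± 0.30, limma adjusted p = 0.000486). In ADREX limma, edgeR and DESeq2 called 0 of the 14 with ozone, and 2 had an unadjusted p under 0.05, beside 17.8% of all genes.

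Bach1, best known as the repressor of Hmox1, had 320.2, 200.1, 318 and 223 normalized counts in ADREX ozone libraries 81 to 84, against 1217, 389, 1209 and 1062 in SHAM ozone libraries 17 to 20. All ADREX ozone libraries were below all SHAM ozone libraries, of which SHAM ozone 18 was the lowest, as in 9.94% of all genes tested. The log2 difference for Bach1 was −1.76 ± 0.30 (limma adjusted p = 0.00209). Maff, a small MAF gene, was higher in ADREX than in SHAM, at 92.9 ± 31.8 and 17.6 ± 5.61 under ozone (log2 difference 2.31 ± 0.40, limma adjusted p = 0.00216) and at 143 ± 62.8 and 25.4 ± 7.98 in air (2.35 ± 0.40, limma adjusted p = 0.00415). These calls for Bach1, Bach2 and Maff were kept in every alternative that tested them.

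Under ozone, 5 of the 14 partners and regulators passed for ADREX against SHAM, beside 12.5% of all genes. The list was chosen with earlier results of these data known, so this share is not independent evidence about the partners. Maff was higher (6.04% of all genes) and Bach1, Bach2, Mafg and Gsk3b were lower (6.48% of all genes). Both edgeR and DESeq2 also called 5 each, without their share of all genes to set beside it. Mafg, a further small MAF gene, fell by 0.63 on the log2 scale (limma adjusted p = 0.0294). Gsk3b, a kinase that marks NRF2 for destruction, fell by 0.66 (limma adjusted p = 0.0305). The Mafg call was lost with the neural marker score as a covariate (0.0763) and without SHAM ozone 17, 19 or 20 or ADREX ozone 82 or 83 (up to 0.0936), where the log2 difference was −0.55 to −0.66. Lost too was the Gsk3b call, without SHAM ozone 17, 18 or 19 or ADREX ozone 83 or 84 (up to 0.086), at −0.56 to −0.70.

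**Figure D4:**
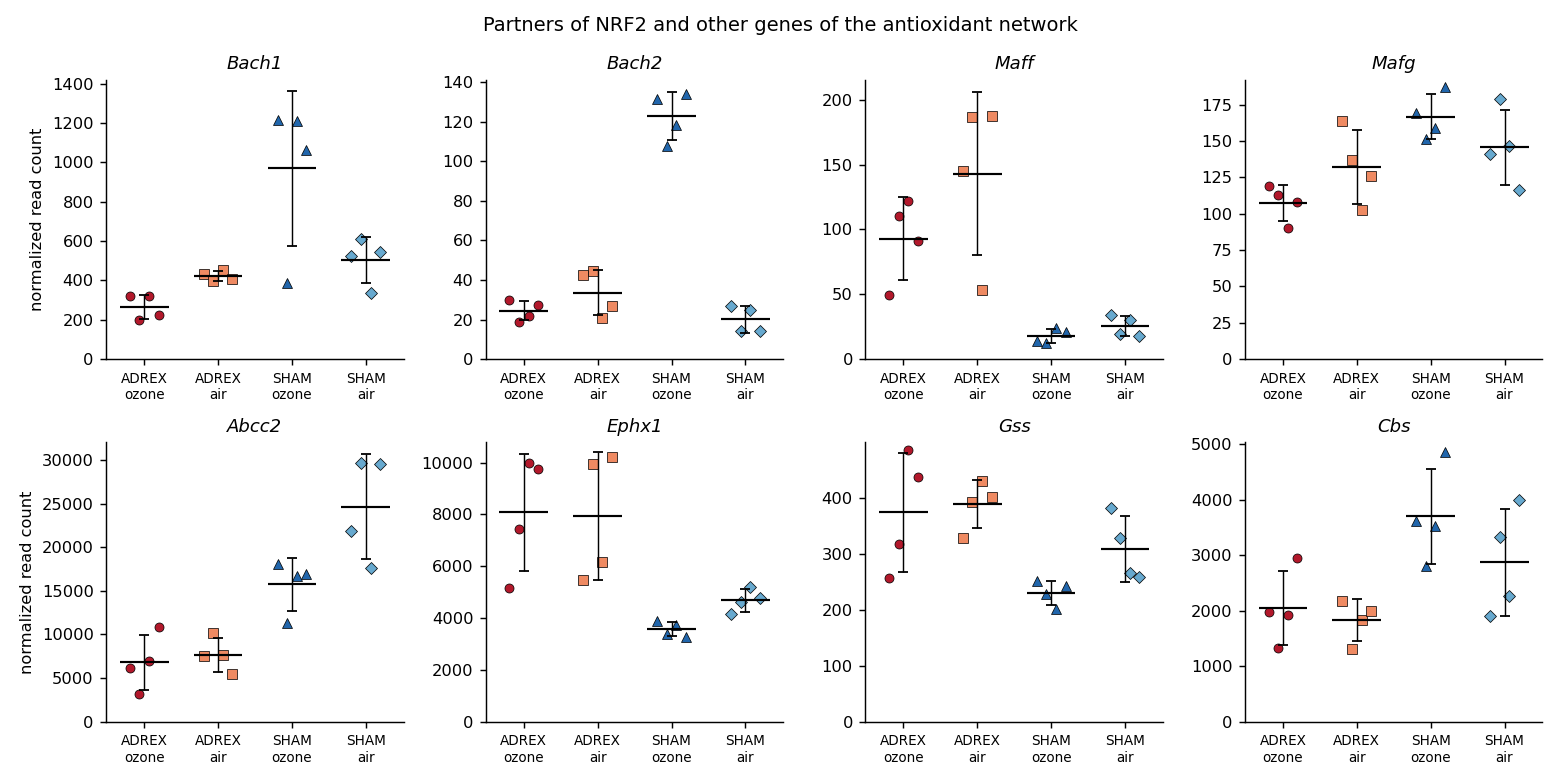
Normalized read counts (vertical axis, linear, a scale per gene) of 8 genes around NRF2 in 16 liver libraries. Each point is 1 library, the wide bar is the group mean and the error bar is ± 1 SD (n = 4). Bach1 lies between 200.1 and 320.2 in ADREX ozone, below the 389 to 1217 of SHAM ozone, and Abcc2 averages 6791 in ADREX ozone and 15754 in SHAM ozone.

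Of 30 further NRF2 target genes 24 were tested. With ozone limma called 0 of them in ADREX and 0 in SHAM, beside 0.125% and 1.58% of all genes, and edgeR and DESeq2 called 0. Unadjusted p was under 0.05 for 2 in ADREX and 3 in SHAM, beside 17.8% and 18.4% of all genes. For ADREX against SHAM, Abcc2, the canalicular exporter of glutathione and bilirubin conjugates, was lower in air and under ozone. It averaged 7669.9 ± 1916 in ADREX air and 24667 ± 5974 in SHAM air (log2 difference −1.69 ± 0.31, limma adjusted p = 0.00667), and 6791 ± 3171 in ADREX ozone and 15754 ± 3016 in SHAM ozone (−1.32 ± 0.31, limma adjusted p = 0.0118). Ephx1, the microsomal epoxide hydrolase, was higher under ozone, at 8080.4 ± 2263 in ADREX and 3573 ± 281 in SHAM (1.13 ± 0.23, limma adjusted p = 0.00525). These calls of both genes were kept in the 23 alternatives. In air, where limma did not call it, Ephx1 averaged 7947 ± 2471 in ADREX and 4680 ± 444 in SHAM.

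Under ozone Gstm3, a glutathione transferase with close paralogs among which reads may be split, was also higher in ADREX (log2 difference 1.74 ± 0.50, limma adjusted p = 0.0313), and Tkt, transketolase, was lower (−0.75 ± 0.20, limma adjusted p = 0.0249). In air, where limma called neither, Gstm3 averaged 37.5 ± 15.0 in ADREX and 10.8 ± 3.06 in SHAM. Tkt averaged 1694 ± 430 in ADREX air and 2441 ± 721 in SHAM air. The Gstm3 call was lost without SHAM ozone 17 or 19 or ADREX ozone 82, 83 or 84 (adjusted p up to 0.0981), at log2 differences of 1.47 to 1.78, and the Tkt call without SHAM ozone 19 or 20 or ADREX ozone 82 or 83 (up to 0.0762), at −0.69 to −0.76. By limma 2 of the 24 genes were thus higher and 2 lower in ADREX under ozone, beside 6.04% and 6.48% of all genes. In air 0 were higher and 1 lower, beside 1.49% and 2.03% of all genes. These shares of the list lay near those of all genes. DESeq2 called 5 of the 24 under ozone and 3 in air, and edgeR 4 and 1. Over all genes DESeq2 called 835 in air, against 451 by limma. The counts over all genes by DESeq2 and edgeR under ozone, and by edgeR in air, are not given. Those counts of the list therefore have no background beside them.

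Of 17 tested genes of glutathione synthesis, recycling and breakdown, limma called 1 higher and 1 lower in ADREX under ozone, beside 6.04% and 6.48% of all genes, so that the share called was near the 12.5% of all genes. By edgeR 1 was called and by DESeq2 4, without their share of all genes to set beside it. Gss, glutathione synthetase, which adds glycine in the last step, averaged 374 ± 105 in ADREX ozone and 230.3 ± 21.6 in SHAM ozone (log2 difference 0.66 ± 0.20, limma adjusted p = 0.0375). Cbs, cystathionine beta-synthase, which leads homocysteine towards cysteine, averaged 2046 ± 672 in ADREX ozone and 3702 ± 852 in SHAM ozone (−0.88 ± 0.27, limma adjusted p = 0.0397). In air, where limma called neither, Gss averaged 388.5 ± 43.1 in ADREX and 309 ± 58.3 in SHAM. Cbs averaged 1830 ± 378 in ADREX air and 2874 ± 960 in SHAM air. The Gss call was lost after TMM rescaling (0.0916), by edgeR (0.0697), without the low-value filter (0.0501) and without SHAM ozone 17, 18, 19 or 20 or ADREX ozone 83 or 84 (up to 0.107), at log2 differences of 0.52 to 0.70. The Cbs call was lost without the low-value filter (0.053), in the fit with the neural covariate (0.131) and without SHAM ozone 17, 19 or 20 or ADREX ozone 81, 82 or 83 (up to 0.127), at −0.67 to −0.90.

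Among 15 other antioxidant enzymes Sod1, the cytosolic superoxide dismutase, was the single call by limma over the 5 comparisons, with 4134 ± 347 in ADREX ozone and 3038 ± 96.0 in SHAM ozone (log2 difference 0.44 ± 0.12, limma adjusted p = 0.0287). The Sod1 call under ozone was 1 of 15, beside 12.5% of all genes (6.04% higher). It was lost by edgeR (0.0972), after TMM rescaling (0.0949), in the fit with the neural covariate (0.0512) and without any 1 of SHAM ozone 17 to 20 or ADREX ozone 83 or 84 (up to 0.0846), with log2 differences of 0.335 to 0.475. Of these 15 enzymes edgeR called 0 under ozone, and DESeq2 called 2 under ozone, 2 in air and 1 for the difference between the ozone effects. Over all genes DESeq2 called 835 in air and 248 for that difference, and its count under ozone is not given. Among 11 tested targets of ATF4, a stress factor that also acts on Slc7a11, Atf5 was lower in ADREX air, at 1388 ± 350.0, than in SHAM air, at 2652 ± 569 (−0.95 ± 0.23, limma adjusted p = 0.0345). The Atf5 call in air was 1 of 11, beside 3.53% of all genes (2.03% lower). That call was lost in the fit with the neural covariate (0.107) and without SHAM air 1 or 2 or ADREX air 65 or 66 (up to 0.11), with log2 differences of −0.76 to −0.94. With ozone limma and edgeR called 0 genes of these 3 lists in ADREX and in SHAM. Unadjusted p was under 0.05 for 2, 3 and 4 of the glutathione, antioxidant and ATF4 genes in ADREX and for 3 of each list in SHAM, out of 17, 15 and 11 genes, beside 17.8% of all genes in ADREX and 18.4% in SHAM. DESeq2 called 1 glutathione and 1 ATF4 gene in each, beside 570 of all genes in ADREX and 540 in SHAM. In SHAM both calls were the same gene, Slc3a2 (DESeq2 adjusted p = 0.00724). Slc3a2 belongs to both lists and is also counted in both among the unadjusted p in SHAM.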

How the data were processed

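The deposited table holds signal values, gene counts scaled by the authors with a constant for each library. The submitters' processing notes name Partek, DESeq2 and genome build rn6; the sources used here give no aligner, annotation or strand setting. Division of each library by its smallest value above 0 gave whole reads, to within 0.01, for 100% of entries. Values were transformed as log2(value + 1), so fold changes of low genes are understated. Testing covered genes whose mean reached 14.7, equal to 1 in 1000000 of the median library. It used limma-trend (limma 3.58.1, R 4.3.3), two-sided, with 1 model of 4 group means over 16 libraries, with Benjamini-Hochberg adjustment over 12791 genes and a threshold of 0.05. Alternatives were a pseudocount of 10, no filter, a filter at 5 in 1000000, TMM rescaling, the recovered reads in edgeR 4.0.16 or in DESeq2 1.42.0, a neural marker score (log2 of the summed RPM of 25 markers plus 1) as covariate, and leaving out each library. The fits were also run on simulated counts with the same dispersion for every gene, which does not copy the spread of these genes. The members and gene lists were chosen with earlier results of these data known. All members are named, and of the other lists those that passed; the 3 tested genes with the highest Pearson r over the 16 libraries are the most like a member. RefSeq windows are of build GRCr8 and were matched by symbol.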

Additional observations from a re-analysis of the deposited data

Results flagged for a closer look

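Within groups of 4 libraries, 3 of 40 combinations of a member and a group held a library that stood apart by Dixon's criterion, of which chance gives about 1 in 20. Hmox1 was at 1587 in ADREX air 67, against 446 to 506 in the other 3 ADREX air libraries. Gclm was at 1081 in SHAM ozone 19, against 513 to 586 in the other 3. Slc7a11 was at 41.3 in SHAM air 3, against 2.01 to 4.80 in the other 3, and that library had the largest neural marker sum of its group, 865 RPM. Beyond the members, the ozone effect on Bach2 differed between the kinds of rats by −3.01 ± 0.42 on the log2 scale (ADREX minus SHAM, limma adjusted p = 0.00871), with −0.40 in ADREX and 2.61 in SHAM.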

How the results depend on the processing

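No paired analysis was possible because the replicate numbers in the titles differ between all groups. For the NRF2 genes the count of calls was kept in 107 of 115 combinations of a comparison and an alternative. Many of these could hardly move, since leaving out a library of neither group compared left the log2 differences unchanged. The single call for ozone in SHAM, Osgin1, was lost in 5 alternatives, each without 1 of the SHAM libraries. Leaving out single libraries gave 0 to 1 member called for ozone in SHAM, 0 to 1 for ADREX against SHAM in air and 1 to 2 under ozone, and DESeq2 gave 1 in air, against 0 by limma. Over all genes DESeq2 called 540, 570, 248 and 835 genes for ozone in SHAM, ozone in ADREX, their difference and ADREX against SHAM in air, against 202, 16, 14 and 451 by limma. For ozone in ADREX the count was 26 with a pseudocount of 10, 36 without the filter and 49 by edgeR. For the difference it was 24 by edgeR and 22 with the neural covariate, which gave 194 for ADREX against SHAM in air. Leaving out 1 library gave 38 to 658 for ozone in SHAM, 0 to 50 for ozone in ADREX, 3 to 33 for the difference, 194 to 1004 in air and 787 to 1848 under ozone, where limma called 1601 with all libraries. The cause was not tested.

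The log2 differences that changed sign belonged to members that had not passed in that comparison. In the fit with the neural covariate, ADREX against SHAM in air was −0.12 for Slc7a11 (1.48 without it) and ozone in ADREX was 0.10 for Nqo1. TMM rescaling gave −0.0175 for Keap1 (ozone in ADREX) and −0.0073 for Nqo1 (ADREX against SHAM in air). Without single libraries, ozone in SHAM ran from −0.22 to 0.061 for Hmox1, and ozone in ADREX from −0.34 to 0.20 for Nqo1 and from −0.0673 to 0.21 for Keap1. ADREX against SHAM in air ran from −0.20 to 0.29 for Nqo1, from −0.0025 to 0.30 for Txnrd1 and from −0.18 to 0.0802 for Keap1. The difference in ozone effect ran from −0.42 to 0.14 for Gclc, from −0.15 to 0.16 for Txnrd1 and from −0.67 to 0.93 for Slc7a11. Srxn1 rests on 13 to 34 reads per group, which limits its precision.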
